A study of Mus musculus with 8 samples.

Results

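Genes of endoplasmic reticulum (ER) stress and protein secretion were followed in mouse spleen as a named list of ER chaperones, folding enzymes, degradation factors, stress sensors, and translocation and transport proteins. Of the 45 listed genes, 44 had a probe set assigned to that gene alone, out of 19938 such genes on the array, and all 44 passed the filter on low values that left 14953 genes to test. Kdelr2, a receptor that retrieves escaped ER proteins, had no probe set of its own and was not analysed here.

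RNA came from splenocytes, the mixed cells of a collagenase- and DNase-digested spleen, from 8 mice of the C57/B6 strain background, with 1 Affymetrix Mouse Gene 1.0 ST array per mouse. The groups were wild type (WT, n = 2), Sle1.3, a lupus-prone genotype (n = 3), and Sle1.3/E2-2het, which is Sle1.3 with haplodeficiency for E2-2 (n = 3). Tcf4 encodes E2-2, a transcription factor on which plasmacytoid dendritic cells depend, and the title of the series calls those cells non-functional in these mice. No treatment of the mice is given, Sle1.3/E2-2het mice carry the Sle1.3 genotype that their Sle1.3 controls also carry, and ages were not given in the labels. The comparison of Sle1.3 with WT describes the lupus-prone genotype, and that of Sle1.3/E2-2het with Sle1.3 the labelled loss of an E2-2 copy. In both, sex also differs between groups, as given below. Levels are log2 of the deposited intensity, differences are log2 differences from a limma fit over all genes tested, and a gene was called at a Benjamini-Hochberg adjusted p under 0.05.

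The ER is where secreted and membrane proteins enter the secretory pathway, fold and form disulfide bonds. When unfolded proteins accumulate, the sensors IRE1 (Ern1), PERK (Eif2ak3) and ATF6 start the unfolded protein response, in which XBP1, ATF4 and ATF6 raise transcription of chaperones, degradation factors and transport proteins. In spleen the pathway is best known for antibody-secreting plasma cells, which depend on XBP1.

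The arrays fell into 2 technical sets by their lowest linear intensity, which was 10.9 and 11.2 in replicate 3 of both Sle1.3 genotypes and 4.57 to 5.11 in the other 6. The fit held group and array set, so a difference need not equal the difference of group means. Tcf4 was 9.02 and 8.80 in WT, 8.67, 8.63 and 9.06 in Sle1.3, and 8.18, 8.13 and 9.25 in Sle1.3/E2-2het, so the library labelled Sle1.3/E2-2het replicate 3 had the highest level of the targeted gene. The labels do not give the deleted part of the gene. Against WT, Tcf4 fell by 0.64 in Sle1.3/E2-2het (adjusted p = 0.0163), and against Sle1.3 it was at -0.27 (adjusted p = 0.575). Xist, the transcript of female X inactivation, was 4.11 and 3.75 in WT, 10.77, 10.68 and 11.90 in Sle1.3, and 3.79, 4.29 and 11.82 in Sle1.3/E2-2het. Transcripts from the Y chromosome were low in the same 4 arrays that were high in Xist, with Eif2s3y at 3.02 to 3.84, Uty at 3.82 to 4.31 and Kdm5d at 3.96 to 4.24, and Sle1.3 replicate 3 is among them although its label gives male. For the other 7 arrays these genes go with the labelled sex. Sex and genotype therefore cannot be told apart between Sle1.3 and WT. The same holds between Sle1.3/E2-2het (male) and Sle1.3 (female) in the first set. The first-set comparison of Sle1.3/E2-2het with WT was male with male, and the second-set pair was female with female. The B cell gene Cd79a (11.20 to 12.34) and the T cell gene Cd3e (8.85 to 10.06) were measured in all arrays, as markers of the labelled splenocytes.

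Promoters of several of these genes carry the ER stress element, the sequence through which ATF6 with NF-Y and XBP1 act on chaperone genes. RefSeq promoter windows (build GRCm38.p6, the 250 bases before the annotated start) were held for 36 of the 45 genes. The element, CCAAT and CCACG with 9 bases of any kind between them, was searched on both strands and found in 8 of the 36 (22.2%), and in 35 of all 27025 genes with a window (0.13%). Its second form, ATTGG and CCACG with 1 base between them, was found in Herpud1 (0.037% of all genes), and the XBP1-type element TGACGTGG in Kdelr3, Sec24d, Txndc5 and Txndc11 (0.603% of all genes). The amino acid response type TGATGNAAN was in Herpud1 and Txndc5 (3.89% of all genes), and the matches did not overlap. Shown here, 5′ to 3′ on the gene's strand with matches to either ER stress element in capitals, are the main chaperone Hspa5, 2 chaperone genes that rose in Sle1.3 (Hsp90b1 and Creld2), the degradation gene Herpud1 and the sensor gene Eif2ak3, in which neither form was found. The windows are chr2:34771840-34772089 (plus strand), chr10:86705445-86705694 (minus), chr15:88819396-88819645 (plus), chr8:94386179-94386428 (plus) and chr6:70844265-70844514 (plus).
Hspa5: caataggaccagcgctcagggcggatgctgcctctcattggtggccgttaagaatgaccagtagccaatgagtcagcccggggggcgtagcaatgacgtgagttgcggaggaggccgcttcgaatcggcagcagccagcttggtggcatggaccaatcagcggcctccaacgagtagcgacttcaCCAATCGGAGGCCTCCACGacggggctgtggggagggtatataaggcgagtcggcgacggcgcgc
Hsp90b1: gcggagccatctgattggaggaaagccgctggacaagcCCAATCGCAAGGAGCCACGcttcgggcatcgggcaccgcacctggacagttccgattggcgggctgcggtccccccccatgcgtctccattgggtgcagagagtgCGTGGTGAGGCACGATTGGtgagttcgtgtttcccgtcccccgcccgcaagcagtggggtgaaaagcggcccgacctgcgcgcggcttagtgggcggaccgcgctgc
Creld2: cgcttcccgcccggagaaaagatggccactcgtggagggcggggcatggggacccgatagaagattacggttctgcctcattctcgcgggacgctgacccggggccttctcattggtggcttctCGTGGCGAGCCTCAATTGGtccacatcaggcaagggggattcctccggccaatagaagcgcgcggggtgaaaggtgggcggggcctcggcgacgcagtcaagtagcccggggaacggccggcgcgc
Herpud1: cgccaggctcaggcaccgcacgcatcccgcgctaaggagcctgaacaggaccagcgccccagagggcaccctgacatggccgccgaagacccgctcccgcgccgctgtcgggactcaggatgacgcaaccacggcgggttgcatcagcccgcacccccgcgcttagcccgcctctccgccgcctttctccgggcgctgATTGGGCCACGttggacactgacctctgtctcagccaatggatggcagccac
Eif2ak3: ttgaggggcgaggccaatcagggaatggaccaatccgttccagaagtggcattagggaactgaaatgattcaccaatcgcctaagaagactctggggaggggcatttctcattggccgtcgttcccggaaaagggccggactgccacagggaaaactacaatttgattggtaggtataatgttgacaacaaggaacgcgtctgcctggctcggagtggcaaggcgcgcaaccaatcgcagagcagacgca

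In Creld2 and in the second match of Hsp90b1 the element lies on the opposite strand, so the capitals read CGTGG first. The elements of the other 5 genes with a match are shown alone, read from CCAAT to CCACG, to compare the spacer between the fixed letters.
Calr: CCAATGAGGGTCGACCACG
Canx: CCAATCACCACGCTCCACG
Dnajc3: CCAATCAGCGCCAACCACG
Pdia6: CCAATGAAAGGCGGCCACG
Syvn1: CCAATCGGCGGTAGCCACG

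They lie at chr8:84847075-84847093, chr11:50325800-50325818, chr14:118937827-118937845, chr12:17266491-17266509 and chr19:6046532-6046550, in that order. Counted from the start, the last base of the element was at -26 in Syvn1, -47 in Hspa5 and -144 in Calr.

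Across the 44 genes, the cargo receptor Lman1, the chaperone genes Hsp90b1, Sdf2l1 and Creld2 and the translocon gene Ssr3 rose in Sle1.3, the sensor genes Eif2ak3 and Ern1 fell, and Lman1 and Creld2 fell from Sle1.3 to Sle1.3/E2-2het. Between Sle1.3 and WT, 5 of the 44 rose (7.46% of all genes tested did) and 2 fell (16.5% of all genes did), with a median difference of 0.16 against -0.06 over all genes. At an unadjusted p under 0.05 these counts were 10 (12.6% of all genes) and 3 (25.4%). The difference was above 0 in 30 genes (44% of all genes) and below 0 in 14 (56%), and all Sle1.3 arrays were above WT in 22 (21.5%) and below it in 3 (24.4%). Against Sle1.3, in Sle1.3/E2-2het, 2 fell (0.461% of all genes) and 0 rose (0.154% of all genes), with a median of -0.37 against 0.00. It was below 0 in 40 genes (49.5% of all genes) and above 0 in 4 (50.5%). Between Sle1.3/E2-2het and WT, 8 fell (23.4% of all genes, so the share of the list was no higher) and 0 rose (10.7% of all genes), with a median of -0.25 against -0.09. At an unadjusted p under 0.05 in limma 15 were lower (31.1% of all genes) and 1 was higher (15.6%), Sec61b, which was also the 1 gene above WT in every Sle1.3/E2-2het array (25.9%), while 11 were below WT in every one (23.2%). The difference was below 0 in 40 genes (57% of all genes) and above 0 in 4 (43%). The 3 comparisons share arrays, so their values are given side by side and not as separate evidence.

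**Figure D1:**
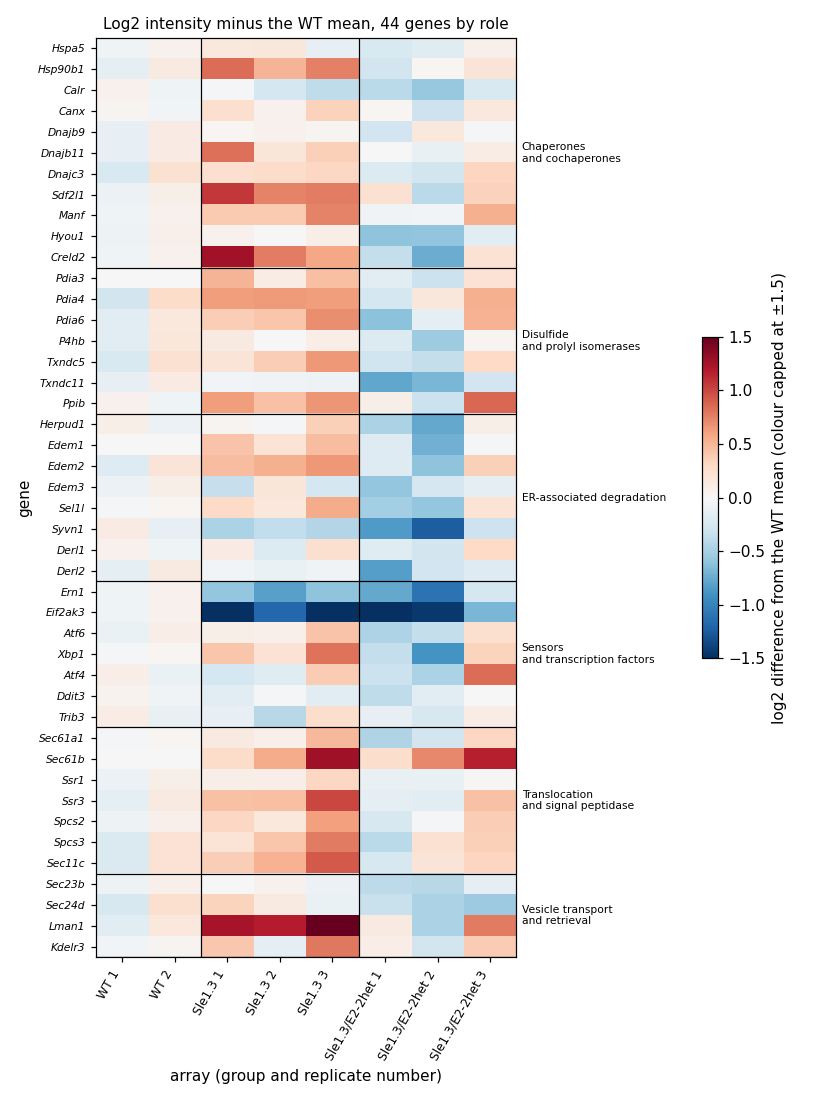
Log2 intensity minus the WT mean for the 44 genes (rows, by role) in the 8 arrays (columns, by group and replicate number), with colour capped at 1.5 on either side. Lman1, Sdf2l1, Creld2 and Hsp90b1 are red in the 3 Sle1.3 columns, Eif2ak3 is blue in all 6 Sle1.3 and Sle1.3/E2-2het columns, and the Sle1.3/E2-2het columns 1 and 2 are mostly blue.

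Many genes of the list had lower values in Sle1.3/E2-2het than in Sle1.3 without passing after adjustment. At an unadjusted p under 0.05 in limma, 28 of the 44 were lower (63.6%, against 6.92% of all genes) and 0 were higher (3.31% of all genes). In 15 genes every Sle1.3/E2-2het array lay below every Sle1.3 array (34.1%, against 4.33% of all genes) and in 0 above (3.04%). In 30 genes the Sle1.3/E2-2het array was lower in each of the 3 same-numbered pairs (68.2%, against 19.3%), and in 0 genes higher in each (16.2%). With the replicate number as a block in place of the array set, 9 genes fell (1.2% of all genes) and 0 rose (0.548%). In the second-set pair, which is female with female by Xist, 33 of the 44 were lower in the library labelled Sle1.3/E2-2het replicate 3 (75%, against 48.9% of all genes), with a median of -0.20 against 0.00. Whether the labels of these 2 arrays were exchanged was not tested. Tcf4 is higher in the array labelled Sle1.3/E2-2het. The Sle1.3 array goes against its labelled sex, but both arrays are female by Xist, so an exchange would leave a female array under a male label. An exchange would turn the sign of this pair, and both arrays also enter the differences of the fit on group and array set. In the first set alone, which compares males with females, the median was -0.49 and 2 genes fell (0.388% of all genes).

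**Figure D2:**
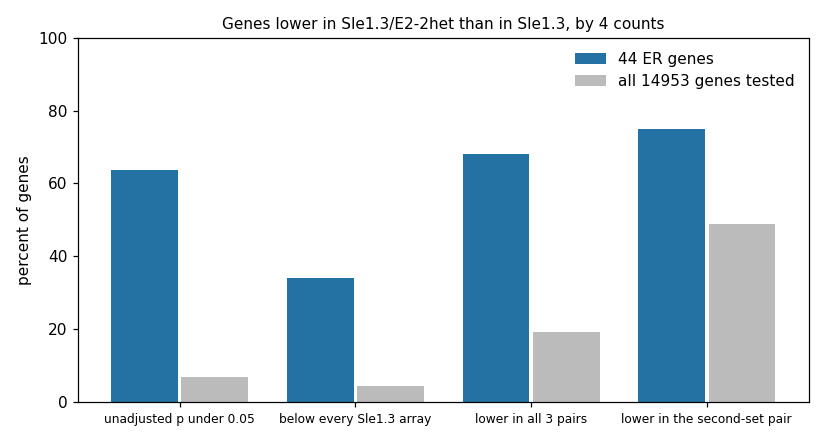
Percent of genes lower in Sle1.3/E2-2het than in Sle1.3 by 4 counts, for the 44 ER genes (blue) and all 14953 genes tested (grey). The blue bars stand at 63.6, 34.1, 68.2 and 75%, and the grey bars at 6.92, 4.33, 19.3 and 48.9%.

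The order of the 3 genotypes was compared within the first array set, where each has 2 mice. By Xist and the Y-linked genes, both Sle1.3 arrays of this set were female and the other 4 were male. Counts that set Sle1.3 apart therefore cannot tell genotype from sex. In 22 of the 44 genes both Sle1.3 arrays were above the other 4 (4.8% of all genes), among them Hspa5, Hsp90b1, Sdf2l1, Creld2, Pdia4, Edem1, Xbp1, Ssr3, Sec11c and Lman1. In 22 genes both Sle1.3/E2-2het arrays were below the other 4 (19.4% of all genes), and in 0 genes were both above (14.4%) or both Sle1.3 arrays below the other 4 (5.58%). Both WT arrays were on top in 5 genes (32.3% of all genes): Syvn1, Ern1, Eif2ak3, Atf4 and Trib3. Sec61b was the 1 gene with both WT arrays lowest (17.5% of all genes).

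The chaperones, which hold nascent proteins in a soluble state and feed them into folding, included 3 of the 5 genes that rose in Sle1.3. Of the 11 chaperone and cochaperone genes 3 rose and 0 fell between Sle1.3 and WT, with a median of 0.18, and all 11 differences in Sle1.3/E2-2het against Sle1.3 were below 0, with 1 call. Hsp90b1, which encodes the ER form of HSP90 and folds Toll-like receptors and integrins, was 10.61 and 10.89 in WT, 11.58, 11.26 and 11.51 in Sle1.3, and 10.48, 10.78 and 10.95 in Sle1.3/E2-2het. All 3 Sle1.3 arrays lay above the other 5. Its difference was 0.63 between Sle1.3 and WT (SE 0.17, adjusted p = 0.0192) and -0.72 in Sle1.3/E2-2het against Sle1.3 (SE 0.14, adjusted p = 0.0526 without and 0.0233 with the replicate block).

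Sdf2l1, a cofactor of the BiP chaperone system, was 8.64 and 8.82 in WT, 9.79, 9.47 and 9.50 in Sle1.3, and 8.96, 8.33 and 9.07 in Sle1.3/E2-2het. Again every Sle1.3 array was above the other 5. The difference was 0.81 in Sle1.3 versus WT (SE 0.21, adjusted p = 0.0186) and -0.80 in Sle1.3/E2-2het versus Sle1.3 (SE 0.18, adjusted p = 0.0811 without and 0.0278 with the replicate block). Creld2, a secreted and ER-resident protein induced by ER stress, was 8.54 and 8.67 in WT, 9.86, 9.38 and 9.18 in Sle1.3, and 8.25, 7.86 and 8.82 in Sle1.3/E2-2het. It rose by 0.81 in Sle1.3 (SE 0.26, adjusted p = 0.0434) and fell by 1.16 from Sle1.3 to Sle1.3/E2-2het (SE 0.22, adjusted p = 0.0469), at -1.57 within the first set and -0.36 within the second-set pair. In the first set the Sle1.3/E2-2het arrays were also below both WT arrays, by a log2 difference of -0.55 (adjusted p = 0.0516).

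Hspa5, encoding BiP, the main ER chaperone and the classical readout of the response, was 11.30 and 11.44 in WT, 11.53, 11.54 and 11.25 in Sle1.3, and 11.14, 11.19 and 11.46 in Sle1.3/E2-2het. The 3 groups overlapped. Its difference was 0.07 in Sle1.3 versus WT (95% interval -0.28 to 0.42) and -0.17 in Sle1.3/E2-2het versus Sle1.3 (95% interval -0.47 to 0.12), with adjusted p = 0.792 and 0.715. Hyou1, a large HSP70-type chaperone that serves BiP as an exchange factor, was 7.95 and 8.10 in WT, 8.09, 8.03 and 8.12 in Sle1.3, and 7.42, 7.43 and 7.86 in Sle1.3/E2-2het. It fell by 0.53 between WT and Sle1.3/E2-2het (SE 0.15, adjusted p = 0.0167), and all 3 Sle1.3/E2-2het arrays were below the other 5.

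The other chaperone genes did not pass in any of the 3 comparisons. Between Sle1.3 and WT, the BiP cochaperone gene Dnajb11 was at 0.45 (SE 0.20) and Manf, a secreted factor induced by ER stress, at 0.35 (SE 0.14). For Calr (calreticulin), Canx (calnexin), Dnajb9 and Dnajc3, the differences in Sle1.3/E2-2het against Sle1.3 ran from -0.33 to -0.09.

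**Figure D3:**
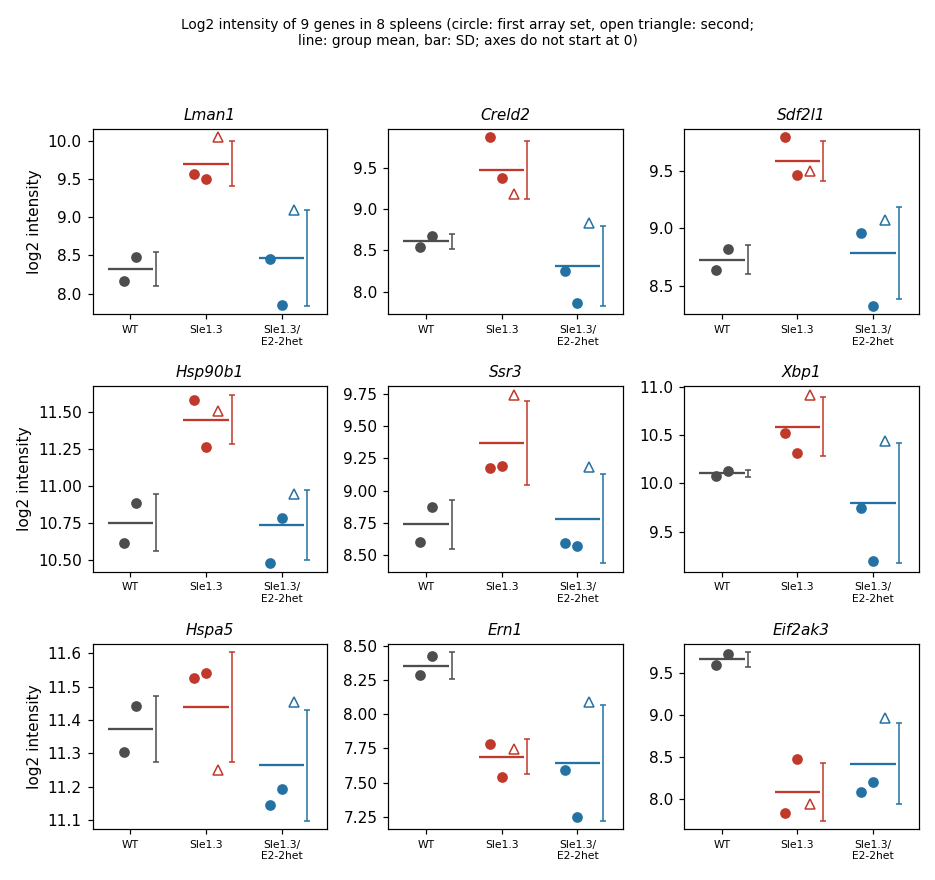
Log2 intensity of 9 genes in each mouse, by group, with circles for the first array set, open triangles for the second, lines for group means and bars for SD. Lman1, Sdf2l1, Hsp90b1 and Creld2 are higher in all 3 Sle1.3 mice than in both WT mice, Hspa5 overlaps between groups, and Ern1 and Eif2ak3 are highest in the 2 WT mice.

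The disulfide and prolyl isomerases, which make and rearrange disulfide bonds or turn proline bonds, had 1 call, that of Txndc11 in Sle1.3/E2-2het versus WT. None of the 7 passed between Sle1.3 and WT (6 above 0, median 0.26), and all 7 were below 0 in Sle1.3/E2-2het against Sle1.3 (median -0.48) with 0 calls. At an unadjusted p under 0.05 in that limma comparison 5 of the 7 were lower, namely Pdia6 (-0.57, SE 0.17), Txndc11 (-0.53, SE 0.13), Txndc5 (-0.52, SE 0.14), Pdia4 (-0.48, SE 0.18) and Pdia3 (-0.45, SE 0.14), with adjusted p between 0.113 and 0.343. Pdia4 was 9.64 and 10.18 in WT and 10.54, 10.54 and 10.53 in Sle1.3, a difference of 0.53 (SE 0.21, adjusted p = 0.084), and its second, dimmer probe set overlapped between these groups (6.23 and 6.78 against 7.11, 6.71 and 7.13). Txndc11, a thioredoxin-domain protein of the ER membrane, was 7.66 and 7.89 in WT, 7.74, 7.72 and 7.70 in Sle1.3, and 6.99, 7.08 and 7.48 in Sle1.3/E2-2het. It fell by 0.66 between WT and Sle1.3/E2-2het (SE 0.16, adjusted p = 0.00971), with no overlap of groups. P4hb, the founding protein disulfide isomerase, and Ppib, cyclophilin B, were at -0.31 and -0.37 in Sle1.3/E2-2het against Sle1.3 and did not pass.

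Of the genes of ER-associated degradation, which recognises misfolded proteins and passes them to the proteasome, Syvn1, Sel1l and Herpud1 fell in Sle1.3/E2-2het versus WT. Between Sle1.3 and WT 0 of 8 passed in limma, with 1 at an unadjusted p under 0.05 (Syvn1) and a median of -0.06. Against Sle1.3, in Sle1.3/E2-2het, all 8 were below 0 with a median of -0.44, 0 passed and 6 had an unadjusted p under 0.05 in limma, and between Sle1.3/E2-2het and WT all 8 were below 0 and 3 fell. Syvn1, the ubiquitin ligase HRD1, was 9.18 and 8.94 in WT, 8.59, 8.70 and 8.62 in Sle1.3, and 8.21, 7.83 and 8.75 in Sle1.3/E2-2het. Both WT arrays were above the other 6, and the fall from WT to Sle1.3/E2-2het was by 0.92 (SE 0.20, adjusted p = 0.00649).

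Sel1l, the adaptor that works with HRD1, was 8.33 and 8.38 in WT, 8.65, 8.51 and 8.91 in Sle1.3, and 7.84, 7.77 and 8.56 in Sle1.3/E2-2het. It fell by 0.48 from WT to Sle1.3/E2-2het (SE 0.15, adjusted p = 0.029), and was at -0.63 against Sle1.3 (SE 0.13, adjusted p = 0.0526 without and 0.0256 with the replicate block). Herpud1, which organises the same complex, was 10.31 and 10.14 in WT, 10.26, 10.21 and 10.59 in Sle1.3, and 9.75, 9.46 and 10.31 in Sle1.3/E2-2het. It fell by 0.56 from WT to Sle1.3/E2-2het (SE 0.16, adjusted p = 0.0177), and the 2 first-set Sle1.3/E2-2het arrays were the lowest of the 8. Edem1 and Edem2, mannosidase-like proteins that mark misfolded glycoproteins, were at -0.67 (SE 0.15, adjusted p = 0.08) and -0.69 (SE 0.17, adjusted p = 0.0976) in Sle1.3/E2-2het against Sle1.3. Edem1 fell with the replicate block (adjusted p = 0.0233) and Edem2 did not (adjusted p = 0.0535). Edem3, Derl1 and Derl2, the last 2 being membrane proteins of the export channel, were at -0.18, -0.10 and -0.37.

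Transcripts of the sensors IRE1 and PERK were lower in both Sle1.3 genotypes than in WT. Of the 7 sensor and transcription factor genes 2 fell and 0 rose between Sle1.3 and WT, and 3 fell between Sle1.3/E2-2het and WT, where 16.5% and 23.4% of all genes fell. Eif2ak3, encoding PERK, the kinase that halts translation under ER stress, was 9.60 and 9.71 in WT, 7.84, 8.48 and 7.95 in Sle1.3, and 8.09, 8.20 and 8.97 in Sle1.3/E2-2het. Both WT arrays were above all 6 others. The difference from WT was -1.67 in Sle1.3 (SE 0.25, adjusted p = 0.00138) and -1.34 in Sle1.3/E2-2het (SE 0.25, adjusted p = 0.00315), which is 0.315 and 0.396 of the WT level. Among all 14953 genes its difference between Sle1.3 and WT ranked 20 from the bottom.

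Ern1, encoding IRE1, the kinase and nuclease that splices Xbp1 mRNA, was 8.29 and 8.43 in WT, 7.78, 7.54 and 7.75 in Sle1.3, and 7.59, 7.25 and 8.09 in Sle1.3/E2-2het. It fell by 0.79 in Sle1.3 (SE 0.18, adjusted p = 0.0097) and by 0.84 in Sle1.3/E2-2het (SE 0.18, adjusted p = 0.00638), with no overlap with WT in either. Against Sle1.3, in Sle1.3/E2-2het, Ern1 was at -0.05 (95% interval -0.38 to 0.29) and Eif2ak3 at 0.33 (95% interval -0.13 to 0.79), and neither passed. Eif2ak3 was at 1.02 in the second-set pair and at -0.01 in the first set, so its positive value rested on the library labelled Sle1.3/E2-2het replicate 3.

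Xbp1, the transcription factor that drives ER expansion in plasma cells, was 10.08 and 10.13 in WT, 10.52, 10.32 and 10.92 in Sle1.3, and 9.74, 9.20 and 10.44 in Sle1.3/E2-2het. The Sle1.3 arrays were above WT, at 0.24 without passing (SE 0.19, adjusted p = 0.378). It fell by 0.55 from WT to Sle1.3/E2-2het (SE 0.19, adjusted p = 0.0407), and against Sle1.3 it was at -0.79 (SE 0.16, adjusted p = 0.0542 without and 0.0184 with the replicate block). The array measures total Xbp1 mRNA, and splicing was not analysed here. Atf6, the third sensor, was 9.01 and 9.20 in WT, 9.19, 9.18 and 9.53 in Sle1.3, and 8.64, 8.75 and 9.35 in Sle1.3/E2-2het. It was at 0.03 in Sle1.3 versus WT and -0.39 in Sle1.3/E2-2het versus Sle1.3 (SE 0.12, adjusted p = 0.24).

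Atf4, Ddit3 and Trib3 showed no call. Atf4, the factor translated when PERK is active, was 8.36 and 8.17 in WT, 8.0, 8.09 and 8.65 in Sle1.3, and 7.95, 7.79 and 9.10 in Sle1.3/E2-2het. Ddit3, the pro-apoptotic factor CHOP, was 7.20 and 7.09 in WT, 6.99, 7.13 and 6.99 in Sle1.3, and 6.76, 6.97 and 7.14 in Sle1.3/E2-2het. The 3 groups overlapped for both genes. Trib3, a pseudokinase induced by ATF4 and CHOP, was at -0.23 in Sle1.3 and -0.22 in Sle1.3/E2-2het against WT, and the 3 genes had adjusted p between 0.178 and 0.516 in those comparisons.

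**Figure D4:**
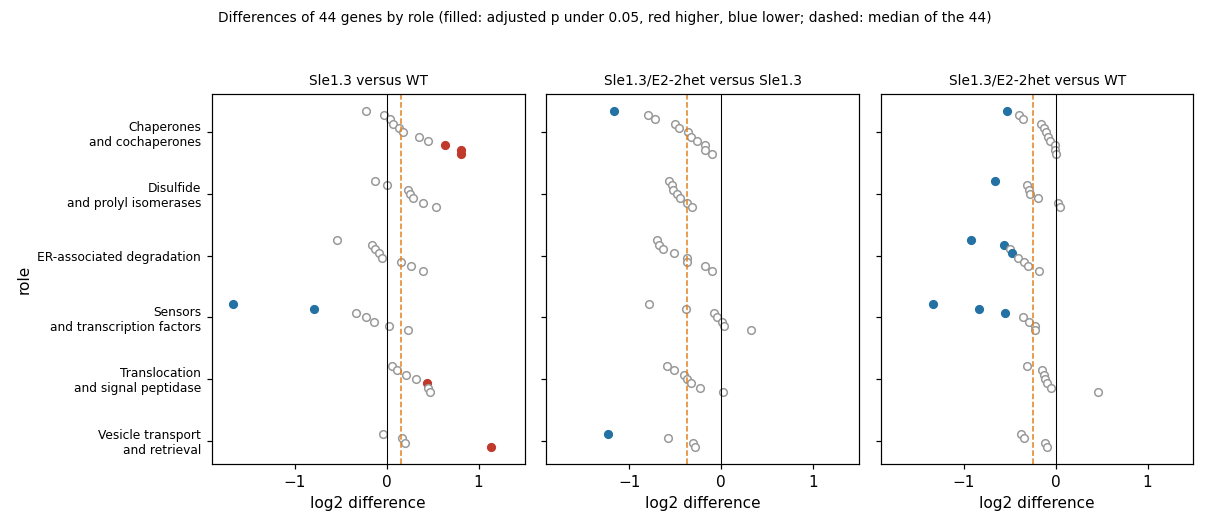
Log2 difference of each of the 44 genes (points) by role (rows) in the 3 comparisons (panels), filled where the adjusted p is under 0.05, with the median of the 44 as a dashed line (0.16, -0.37 and -0.25). In the first panel the filled points of the sensors lie left of 0 and those of chaperones, translocation and transport lie right of it.

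Genes of translocation into the ER and of the signal peptidase, which cuts the signal sequence from new chains, were all above 0 in Sle1.3 versus WT (7 of 7, median 0.31), and 1 of them rose. Ssr3, a subunit of the translocon-associated complex, was 8.61 and 8.87 in WT, 9.18, 9.19 and 9.74 in Sle1.3, and 8.60, 8.57 and 9.18 in Sle1.3/E2-2het. It rose by 0.44 in Sle1.3 (SE 0.14, adjusted p = 0.0402), and was at -0.58 in Sle1.3/E2-2het against Sle1.3 (SE 0.12, adjusted p = 0.0538 without and 0.0253 with the replicate block). In the first set alone the rise in Sle1.3 did not pass (adjusted p = 0.0759). Sec11c, a catalytic subunit of the signal peptidase, was at 0.47 in Sle1.3 versus WT (SE 0.18, adjusted p = 0.0776) and at -0.52 in Sle1.3/E2-2het versus Sle1.3 (SE 0.15, adjusted p = 0.198 without and 0.048 with the replicate block). Sec61b, a subunit of the protein channel, was 7.40 and 7.39 in WT, 7.66, 7.95 and 8.66 in Sle1.3, and 7.66, 8.11 and 8.55 in Sle1.3/E2-2het. It was above WT in all 6 by each of its 3 probe sets, at 0.45 in Sle1.3 (adjusted p = 0.0733) and 0.46 in Sle1.3/E2-2het (adjusted p = 0.0517). The channel subunit Sec61a1, the translocon subunit Ssr1 and the peptidase subunits Spcs2 and Spcs3 were at 0.06 to 0.31 in Sle1.3 versus WT and at -0.41 to -0.23 in Sle1.3/E2-2het versus Sle1.3.

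Among the genes of vesicle transport and retrieval, Lman1 had the largest rise of the 44 in Sle1.3 and the largest fall from Sle1.3 to Sle1.3/E2-2het. Lman1 encodes ERGIC-53, a lectin that carries glycoproteins, among them coagulation factors, from the ER to the Golgi. It was 8.17 and 8.48 in WT, 9.56, 9.49 and 10.04 in Sle1.3, and 8.46, 7.85 and 9.10 in Sle1.3/E2-2het. Every Sle1.3 array was above the other 5, and the WT and Sle1.3/E2-2het arrays overlapped. It rose by 1.13 in Sle1.3 (2.2-fold, SE 0.20, adjusted p = 0.00293) and fell by 1.23 from Sle1.3 to Sle1.3/E2-2het (SE 0.17, adjusted p = 0.00867), at -1.38 within the first set and -0.94 within the second-set pair. Between Sle1.3/E2-2het and WT it was at -0.10 (95% interval -0.53 to 0.34). Sec24d and Sec23b, coat proteins of vesicles that leave the ER, were at -0.58 (SE 0.14, adjusted p = 0.109) and -0.31 in Sle1.3/E2-2het against Sle1.3, and Kdelr3, a retrieval receptor, was at -0.29.

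Genes with and without the ER stress element had like medians. The 9 genes with either form had a median of 0.14 in Sle1.3 versus WT, with 2 rises (Hsp90b1 and Creld2), and -0.38 in Sle1.3/E2-2het versus Sle1.3, with all 9 below 0. The 27 genes with a window and neither form had medians of 0.17 and -0.37.

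A further list of 85 tested genes of the same pathway was fitted in the same way. It holds other folding, glycosylation, degradation, stress response, translocation and transport genes. There 2 rose (7.46% of all genes) and 7 fell (16.5%) between Sle1.3 and WT, with a median of -0.12. In Sle1.3/E2-2het against Sle1.3, 0 rose (0.154% of all genes) and 1 fell (0.461%), with a median of -0.20, and with the replicate block 4 fell (1.2%). In limma at an unadjusted p under 0.05, 22 were lower (6.92% of all genes) and 0 higher (3.31%) in that comparison. The median of the 85 genes there was -0.30 in the first set, which compares males with females, and 0.02 in the second-set pair. In that pair 38 of the 85 were lower (48.9% of all genes). Between Sle1.3/E2-2het and WT 2 rose (10.7% of all genes) and 29 fell (23.4%), with a median of -0.33. Spcs1, a signal peptidase subunit, rose by 0.60 in Sle1.3 (SE 0.18, adjusted p = 0.0314), and Asns, the asparagine synthetase that ATF4 induces, by 0.57 (SE 0.18, adjusted p = 0.0438). The coat genes Sec24b (-0.79, SE 0.14) and Sec31a (-0.61, SE 0.17) and the phosphatase subunit gene Ppp1r15b (-0.67, SE 0.14), which counters PERK signalling, fell. Erp44, a thioredoxin-family protein that retains secretory proteins, fell in Sle1.3/E2-2het against Sle1.3 (-0.70, SE 0.13, adjusted p = 0.038 without and 0.0192 with the replicate block). With the block Hspa13 (-0.67, adjusted p = 0.0832 without and 0.0221 with it), Creb3l2 (-0.85, 0.0526 and 0.0144) and Tram2 (-0.62, 0.0709 and 0.025) also fell. Against WT the largest falls in Sle1.3/E2-2het were those of Creb3l2, an ER-bound transcription factor (-0.89), Sec31a (-0.87), Sec24b (-0.82) and Sec24c (-0.81).

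In whole spleen, fewer cells of a type and less RNA per cell cannot be told apart. Plasma cells are rich in ER, and 11 plasma cell genes were measured. Their summed linear intensity was 8240 to 8814 in WT, 8640 to 10280 in Sle1.3 and 8250 to 10160 in Sle1.3/E2-2het. The upper ends in both Sle1.3 genotypes were the second-set arrays. In the first set, which compares females with males, the sums were 9701 and 8640 in Sle1.3 and 8250 and 8369 in Sle1.3/E2-2het. Jchain had the highest level of the 11 genes in every array and so weighs most in the sum. Between Sle1.3 and WT 1 of the 11 rose and 2 fell, and in Sle1.3/E2-2het against Sle1.3 0 rose and 1 fell. Between Sle1.3/E2-2het and WT, where 8 ER genes fell, Jchain rose by 0.49 (adjusted p = 0.03) and Pou2af1, Slamf7 and Ell2 fell by 0.77, 0.68 and 0.77 (adjusted p = 0.00669, 0.0158 and 0.00934). Mzb1, itself an ER cochaperone of antibody-secreting and marginal zone B cells, was the plasma cell gene with the order seen in Lman1. It was 9.0 and 8.99 in WT, 10.15, 9.96 and 9.98 in Sle1.3, and 8.93, 8.93 and 9.55 in Sle1.3/E2-2het, and differed by 0.94 in Sle1.3 versus WT (adjusted p = 0.00378) and by -0.90 in Sle1.3/E2-2het versus Sle1.3 (adjusted p = 0.0214). Jchain, the joining chain of secreted IgM and IgA, was 12.14, 11.90 and 12.33 in Sle1.3 and 12.21, 12.20 and 12.28 in Sle1.3/E2-2het, differing by 0.11 (SE 0.13). Sdc1, the surface marker CD138, was at -0.11 (SE 0.12) and Prdm1, the regulator Blimp-1, at -0.47 (SE 0.15, adjusted p = 0.264) in that comparison. The lowest of the list was Cd93, with a mean log2 intensity of 7.02, above the filter level of 5.01. The part of plasma cells in the ER gene differences was not tested.

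**Figure D5:**
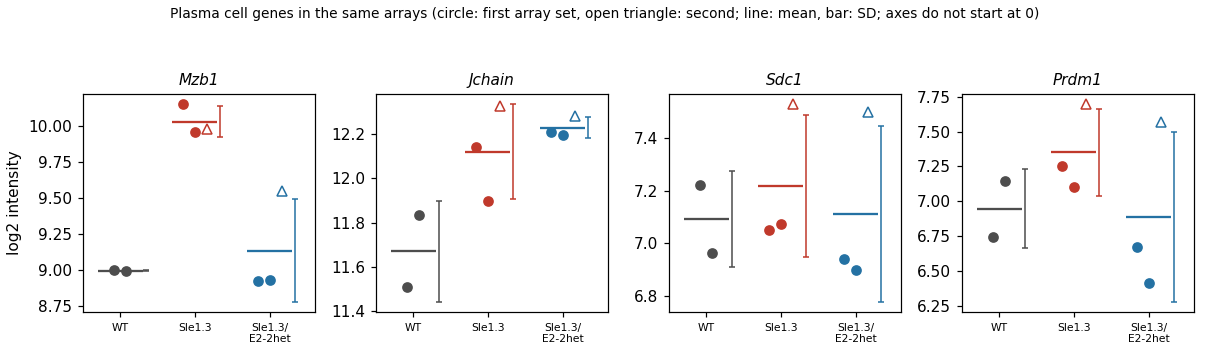
Log2 intensity of the plasma cell genes Mzb1, Jchain, Sdc1 and Prdm1 in each mouse, drawn as in the plot of 9 ER genes. Mzb1 is at 9.96 to 10.15 in the 3 Sle1.3 mice and at 8.93 to 9.55 in the other 5, while Jchain is at 12.20 to 12.28 in the 3 Sle1.3/E2-2het mice.

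Other cell lists differed in range between genotypes. These ranges take in both array sets, and WT has no second-set array. The highest pancreas and stromal sums of both Sle1.3 genotypes, and the highest B and T cell sums of Sle1.3/E2-2het, were those of replicate 3. The first-set Sle1.3/E2-2het arrays summed to 9786 and 9524 for B cell genes and 2402 and 2360 for T cell genes, below every WT and Sle1.3 array. Summed neutrophil genes (11 of 11 measured) were 1926 to 2933 in WT, 8507 to 28260 in Sle1.3 and 9067 to 25670 in Sle1.3/E2-2het, and summed genes of dividing cells (6 of 7) 1024 to 1080, 2269 to 3722 and 1756 to 2462. Summed erythroid genes (5 of 7) were 597.4 to 601.1, 500.7 to 695.3 and 1202 to 2425. B cell genes (7 of 8) summed to 12550 to 15600, 11020 to 12900 and 9524 to 14280, and T cell genes (7 of 8) to 3745 to 4054, 2893 to 3597 and 2360 to 3742. Monocyte and macrophage genes (6 measured) summed to 1418 to 1918 in WT, 1845 to 2867 in Sle1.3 and 2160 to 3100 in Sle1.3/E2-2het. Exocrine pancreas genes (8 of 10) summed to 327.5 to 377.8, 376.2 to 531.2 and 423.3 to 515.6, and stromal genes (6 of 6) to 591.1 to 636.5, 651.5 to 945.6 and 605.4 to 883.1. Between Sle1.3/E2-2het and WT, 5 of 7 B cell genes and 4 of 7 T cell genes fell, while 3 of 6 monocyte and macrophage genes, 3 of 5 erythroid genes and 11 of 11 neutrophil genes rose. Of the 6 genes of dividing cells, 6 rose and 0 fell in Sle1.3 versus WT (median 1.54). In Sle1.3/E2-2het versus Sle1.3, 0 of them rose and 1 fell, Top2a (median -0.68). In Sle1.3/E2-2het versus WT, 5 of them rose and 0 fell. The part of these cells in the ER gene differences was not tested.

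The calls rested on few arrays and on the array-set term. Without that term 1 gene rose in Sle1.3 (Lman1), 1 fell (Eif2ak3) and 0 fell from Sle1.3 to Sle1.3/E2-2het. With labelled sex in its place these counts were 0, 1 and 0. Labelled sex goes against Xist in Sle1.3 replicate 3, so that fit does not adjust for sex as the arrays show it. Leaving out WT replicate 1, WT replicate 2 or Sle1.3 replicate 1 left 1 of the 5 rises in Sle1.3, Lman1. The rise of Ssr3 passed in 1 of the 8 omissions of an array (limma adjusted p 0.0455 to 0.154). The fall of Creld2 did not pass without WT replicate 1, WT replicate 2, Sle1.3 replicate 1 or Sle1.3/E2-2het replicate 2 (adjusted p 0.115 to 0.185), and the falls from WT to Sle1.3/E2-2het were 2 in place of 8 without WT replicate 2. With quantile normalization 10 genes rose and 2 fell between Sle1.3 and WT, and over all genes 945 rose and 1300 fell in place of 1115 and 2470. With median centring 1177 rose and 4335 fell over all genes between Sle1.3/E2-2het and WT, in place of 1599 and 3493.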

How the data were processed

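The authors deposited 1 table of 35556 probe sets, and its values read as linear intensity. The submitters' processing notes name Affymetrix Expression Console and RMA; versions, roles and build are not given in the sources used here. Per the labels' protocols 250 ng of total RNA was amplified per sample. Log2 was taken here. Probe sets with 1 gene symbol (21789; 1621 had several and 12146 none) were kept, the row with the highest mean stood for a gene, and genes above the 25th percentile of mean log2 intensity (5.01) were tested.

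Differences were fitted with limma 3.58.1 in R 4.3.3 (lmFit, eBayes, two-sided, 4 residual degrees of freedom) on group and array set, adjusted over 14953 genes. Labelled sex, the covariate of an earlier fit, goes with array set in opposite directions in the Sle1.3 groups. It also goes against the sex-linked genes of Sle1.3 replicate 3, and was kept as an alternative. The array-set term, the members and the lists were chosen with earlier results of these data known. The labels do not say how mice relate, so p-values measure the spread between these mice; the number of arrays limits precision, and no detection call was used.

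Same-numbered Sle1.3 and Sle1.3/E2-2het arrays deviated together from their group means (correlations across genes 0.573, 0.369 and 0.618). The replicate block is therefore printed for that pair of groups where it changes a call. The array set was not removed before these correlations, so the shared set enters all 3, and above all that of replicate 3. Unlike-numbered first-set arrays of these groups had 0.119 and -0.0194. With WT the correlations of same-numbered arrays were -0.0768 to 0.214. On simulated data the fit recovered 65% of log2 changes of 1 between Sle1.3 and WT, and 82% in Sle1.3/E2-2het against Sle1.3, over 14953 genes. The simulated noise was independent between arrays, with no such correlations and no sex difference, so these shares need not hold for the real arrays. Per comparison, genes named with all values are up to 12 that passed with the largest differences, or the 5 with the smallest p where fewer than 3 passed, plus Hspa5 and 6 sensors and factors. Dnajc3 had 2 probe sets with the same values. Promoter sequences are RefSeq's.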

Additional observations from a re-analysis of the deposited data

How the results depend on the processing

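With no array-set term, 1 gene rose and 1 fell between Sle1.3 and WT, 0 fell in Sle1.3/E2-2het against Sle1.3, and 1 fell between Sle1.3/E2-2het and WT, where Atf4 was at 0.014. With labelled sex in place of the array set these counts were 0, 1, 0 and 1, Hspa5 was at -0.12 in Sle1.3 versus WT and Ern1 at 0.052 in Sle1.3/E2-2het versus Sle1.3. With the replicate block, 8 genes rose between Sle1.3 and WT, 9 fell in Sle1.3/E2-2het against Sle1.3 and 1 rose between Sle1.3/E2-2het and WT. Over all genes the block moved the falls in Sle1.3/E2-2het against Sle1.3 from 69 to 180 and the rises from 23 to 82. Among the 85 other pathway genes it moved the rises in Sle1.3 versus WT from 2 to 4, the falls there from 7 to 12, and the falls in Sle1.3/E2-2het against Sle1.3 from 1 to 4. With median centring 3 rose between Sle1.3 and WT and 1 fell in Sle1.3/E2-2het against Sle1.3, and with quantile normalization 10 rose between Sle1.3 and WT, 1 rose and 5 fell between Sle1.3/E2-2het and WT. Without the filter 1 fell in Sle1.3/E2-2het against Sle1.3 and 1 rose between Sle1.3/E2-2het and WT. Atf6 in Sle1.3 versus WT was at -0.0094 with median centring, and Ddit3 at 0.0058 with quantile normalization; in Sle1.3/E2-2het versus Sle1.3, Atf4 was at -0.17 in the first set and -0.0052 with median centring, and Eif2ak3 at -0.014 in the first set. None of these reversed values passed in either setting, and the cause was not tested. Leaving out each array in turn gave 1 to 5 rises and 1 to 3 falls between Sle1.3 and WT, 1 to 5 falls in Sle1.3/E2-2het against Sle1.3, and 0 to 1 rises and 2 to 10 falls between Sle1.3/E2-2het and WT. There the values of Atf6 (-0.067 to 0.12) and Hspa5 (-0.0066 to 0.16) in Sle1.3 versus WT, and of Atf4 (-0.17 to 0.14), Ddit3 (-0.19 to 0.013), Eif2ak3 (-0.014 to 0.61) and Ern1 (-0.24 to 0.11) in Sle1.3/E2-2het versus Sle1.3, crossed 0. The median of the 44 genes kept its sign in every planned setting: 0.03 to 0.25 in Sle1.3 versus WT, -0.49 to -0.32 in Sle1.3/E2-2het versus Sle1.3, and -0.33 to -0.08 in Sle1.3/E2-2het versus WT. Lman1 passed in both of its comparisons in every omission of an array, with adjusted p up to 0.0278 and 0.0442.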
